A study of Homo sapiens with 6 samples.

Results

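The genes described here encode aminoacyl-tRNA synthetases, the enzymes that join each amino acid to its transfer RNA (tRNA). Human cells carry separate nuclear genes for most cytosolic and mitochondrial enzymes, and by convention the symbol of a mitochondrial enzyme ends in 2. GARS1 and KARS1 each make both forms, and they were counted here among the cytosolic enzymes. Several cytosolic enzymes are held with the scaffold proteins AIMP1 and AIMP2 in the multi-synthetase complex. Many cytosolic synthetase genes are known targets of ATF4, a transcription factor of the amino acid and stress response. The mitochondrial enzymes serve the translation of the respiratory chain subunits encoded by mitochondrial DNA.

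The list named 37 genes, of which 19 encode cytosolic enzymes, 16 mitochondrial enzymes and 2 scaffold proteins. A gene was read from array probe sets annotated with exactly 1 gene symbol. This held for 33 of the 37 genes, with 70 probe sets, and 61 of those probe sets passed a filter on dim signal. All 33 genes were tested, among 12405 genes in all. They were 17 cytosolic enzymes, 15 mitochondrial enzymes and AIMP1. MARS1, QARS1 and TARS2 were named only by probe sets that also list another gene, and with AIMP2 they were not analysed here.

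RNA was measured in VCaP cells, an established human prostate cancer line with a TMPRSS2-ERG fusion. The 3 groups, each of 2 arrays, were NTC shRNA, whose hairpin serves as the control, and PRMT5 shRNA 1 and PRMT5 shRNA 2. The protein that PRMT5 encodes adds methyl groups to arginines of histones and splicing proteins. Every group, the control included, had 3 days of doxycycline at 100 ng/ml, so each comparison is between hairpins in doxycycline and none is with untreated cells. The labels do not say whether the hairpin lines were clones or whether replicates were separate cultures, so the spread behind each p-value is that between these arrays and may be technical.

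PRMT5 read 810 and 881 on the NTC arrays, 136 and 134 with PRMT5 shRNA 1, and 291 and 321 with PRMT5 shRNA 2. PRMT5 shRNA 1 thus left a mean level of 15.9% and PRMT5 shRNA 2 one of 36.2% of NTC. Arrays of a group correlated at 0.996 to 0.997 over genes and arrays of different groups at 0.976 to 0.991. The 3'-to-5' signal ratio of ACTB, a sign of RNA quality, was 4.58 and 4.88 with NTC, 3.49 and 3.88 with PRMT5 shRNA 1, and 5.72 and 4.995 with PRMT5 shRNA 2, and that of GAPDH was 1.21 to 1.33. The ACTB ratio differed between the groups and was lowest with PRMT5 shRNA 1, and its part in the values below was not tested. Of 10 VCaP and luminal markers, 8 had a probe set and all 8 passed the filter, with summed intensities of 12911 and 13168 with NTC, 14342 and 15123 with PRMT5 shRNA 1, and 15615 and 14348 with PRMT5 shRNA 2. The 8 did not move together. In log2(intensity + 16), KLK3 differed from NTC by 1.15 and 1.11 with PRMT5 shRNA 1 and 2, and KRT8 by 0.51 and 0.66. KRT18 (0.33 and 0.22) and KLK2 (0.18 and 0.13) were also higher. HOXB13 differed by -0.47 and -0.09, ERG by -0.40 and -0.02, TMPRSS2 by -0.28 and -0.14, and EPCAM by -0.01 and -0.03. Of 11 stromal, endothelial and immune markers, 10 had a probe set and 4 passed (COL1A1, LUM, ACTA2 and LYZ), with sums over the 10 of 686 and 660, 1152 and 1222, and 850 and 933 in the same order. Its members went opposite ways: LUM averaged 448 on NTC arrays and, for the knockdown hairpins in order, 981 and 704, and LYZ 27.9, 127 and 70.0, while ACTA2 averaged 135, 21.4 and 50.6 and COL1A1 32.8, 27.6 and 47.4. The part of these markers in the values below was not tested, and the defining immune and endothelial markers PTPRC, PECAM1 and VWF stayed below the filter. In bulk RNA, fewer cells of a type and less RNA per cell cannot be told apart.

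The mitochondrial enzymes were lower with PRMT5 shRNA 1. Of the 15 tested, 10 fell and 0 rose, against 23.1% of all 12405 genes lower and 16.2% higher (39.3% called in either direction; called means a Benjamini-Hochberg adjusted p under 0.05 in limma's fit). All 15 log2 differences from NTC were below 0, from -0.54 for SARS2 to -0.07 for RARS2, where 55.4% of all genes were below 0. Their median was -0.34, beside -0.04 over all genes. Fewer were called without PRMT5 shRNA 1 replicate 2, in this class and over all genes alike. The class median was then -0.30, beside -0.03 over all genes. Both PRMT5 shRNA 1 arrays lay below both NTC arrays for 13 of the 15, as they did for 41.2% of all genes. Differences here are of log2(intensity + 16), which understates the change of dim genes, and each comes with the standard error (SE) of the fit.

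With PRMT5 shRNA 2 the same class showed 2 lower and 0 higher of 15, against 8.38% of all genes lower and 13.1% higher (21.4% in either direction). The 2 were AARS2 and MARS2. Of the 15 differences 10 were below 0, where 47.6% of all genes were, with a median of -0.05 beside 0.01 over all genes. Both PRMT5 shRNA 2 arrays lay below both NTC arrays for 9 of the 15, as they did for 27.6% of all genes.

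**Figure D1:**
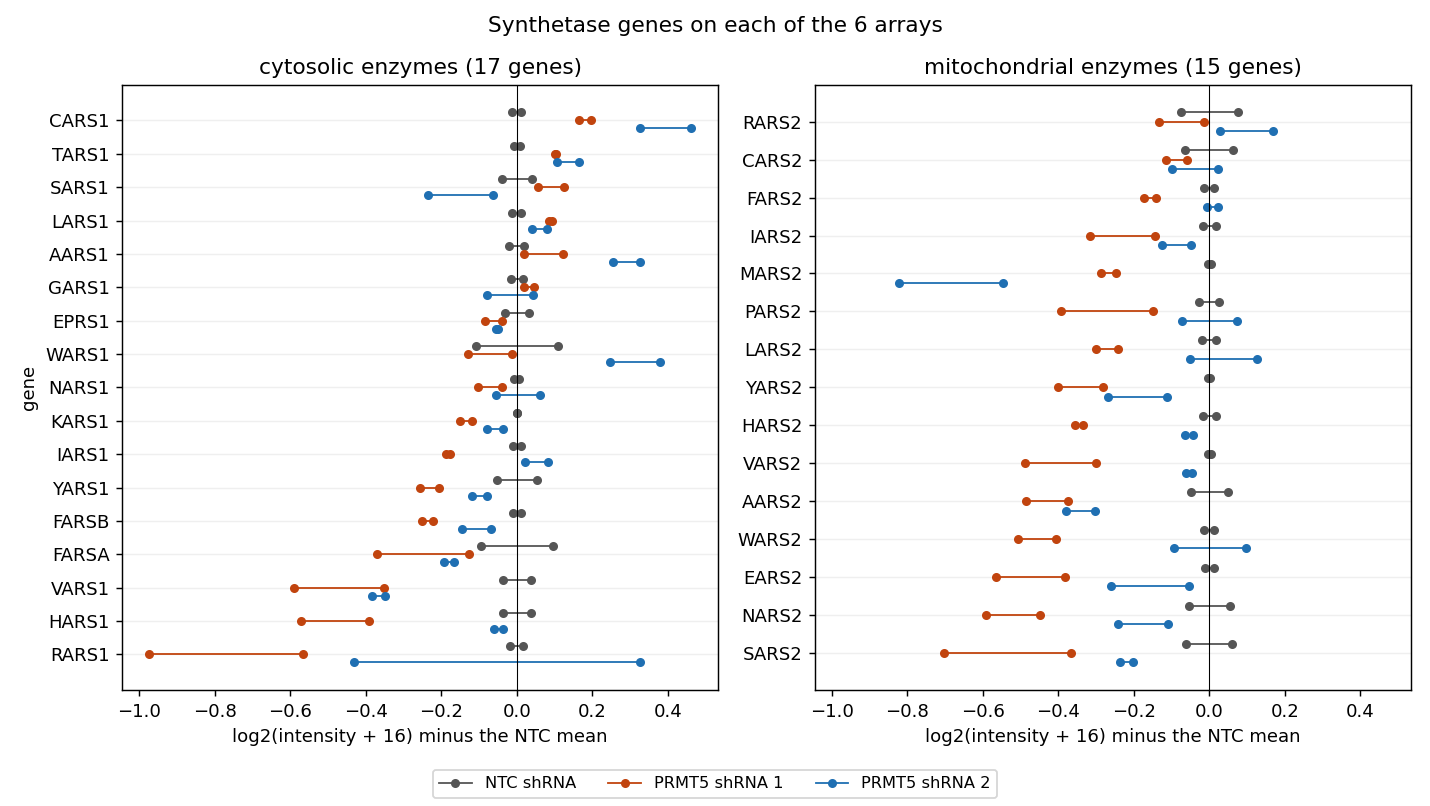
Each gene's 2 arrays per group, as log2(intensity + 16) minus the mean of the NTC arrays (x axis), for 17 cytosolic enzymes (left) and 15 mitochondrial enzymes (right). Points are single arrays, a line joins the 2 arrays of a group, and genes are ordered by the PRMT5 shRNA 1 difference. For 13 of the 15 mitochondrial enzymes both PRMT5 shRNA 1 points lie to the left of both NTC points, and the RARS1 points of PRMT5 shRNA 2 are spread on both sides of NTC.

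Among the mitochondrial enzymes, NARS2, which charges the asparagine tRNA, showed the lowest adjusted p with PRMT5 shRNA 1. NARS2 read 705 and 653 with NTC, 445 and 493 with PRMT5 shRNA 1, and 571 and 627 with PRMT5 shRNA 2. The PRMT5 shRNA 1 arrays were the lowest, the PRMT5 shRNA 2 arrays lay between, and no group overlapped another. NARS2 fell with PRMT5 shRNA 1 by 0.52 ± 0.08 (SE; adjusted p = 0.000466), and with PRMT5 shRNA 2 the difference was -0.18 ± 0.08 (adjusted p = 0.134).

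MARS2, which charges both the initiator and the elongator methionine tRNA of mitochondria, had the reverse order of hairpins. MARS2 read 182 and 183 with NTC, 146 and 151 with PRMT5 shRNA 1, and 96.0 and 120 with PRMT5 shRNA 2. All 4 knockdown arrays lay below NTC, with those of PRMT5 shRNA 2 the lowest. MARS2 fell with PRMT5 shRNA 2 by 0.69 ± 0.10 (adjusted p = 0.000723), while the difference with PRMT5 shRNA 1 was -0.27 ± 0.10 (adjusted p = 0.06). The difference between hairpins was itself called, with PRMT5 shRNA 2 lower than PRMT5 shRNA 1 by 0.42 on the log2 scale (-0.42 ± 0.10, adjusted p = 0.0151). That call was lost without PRMT5 shRNA 1 replicate 1 (-0.44, adjusted p = 0.056), without PRMT5 shRNA 1 replicate 2 (-0.40, adjusted p = 0.0861) and without PRMT5 shRNA 2 replicate 1 (-0.28, adjusted p = 0.0661).

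AARS2, the mitochondrial alanyl enzyme, was the mitochondrial member that fell with each hairpin. AARS2 read 333 and 310 with NTC, 244 and 225 with PRMT5 shRNA 1, and 257 and 243 with PRMT5 shRNA 2. The knockdown arrays of both hairpins lay together below NTC. The differences were -0.43 ± 0.08 with PRMT5 shRNA 1 (adjusted p = 0.00205) and -0.34 ± 0.08 with PRMT5 shRNA 2 (adjusted p = 0.012). The call with PRMT5 shRNA 2 was lost without NTC replicate 1 (-0.29, adjusted p = 0.109) and without PRMT5 shRNA 2 replicate 2 (-0.30, adjusted p = 0.0514). On its other kept probe set the differences were -0.39 and -0.08.

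The promoters of NARS2 and MARS2, whose order of hairpins differed, are shown as the 250 bases before the RefSeq start on GRCh38.p14. The NARS2 window is chr11:78574865-78575114 on the minus strand and the MARS2 window chr2:197705119-197705368 on the plus strand. Capitals mark GCGCANGCG, a motif bound by the respiratory gene factor NRF1, and CCGGAAG, a motif of ETS factors, on either strand.
NARS2: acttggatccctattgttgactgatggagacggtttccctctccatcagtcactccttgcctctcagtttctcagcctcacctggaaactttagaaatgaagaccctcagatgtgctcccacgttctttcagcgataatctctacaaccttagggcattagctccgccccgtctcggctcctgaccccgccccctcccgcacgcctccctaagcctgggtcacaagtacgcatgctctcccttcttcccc
MARS2: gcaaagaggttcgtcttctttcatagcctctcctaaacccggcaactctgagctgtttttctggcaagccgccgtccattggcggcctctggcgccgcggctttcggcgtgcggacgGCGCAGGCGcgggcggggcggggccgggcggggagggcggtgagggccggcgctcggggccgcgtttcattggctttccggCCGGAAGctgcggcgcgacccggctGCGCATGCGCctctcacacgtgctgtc
The MARS2 window held GCGCANGCG from 133 to 125 bases before the start and, overlapping on both strands, from 27 to 18, and 1 match to CCGGAAG from 52 to 46. The NARS2 window held no match to these motifs or to TGATGNAA. Of the 10167 tested genes with a window, 15.3% held GCGCANGCG and 18.8% CCGGAAG, beside 6.56% and 8.52% of all 35116 RefSeq windows. Of the 13 mitochondrial enzymes with one, 2 held the former (IARS2 and MARS2) and 6 the latter. A match describes letters and does not show a binding site.

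Among the remaining mitochondrial enzymes called with PRMT5 shRNA 1, the glutamyl enzyme EARS2 read 199 and 202 with NTC, 150 and 130 with PRMT5 shRNA 1, and 165 and 193 with PRMT5 shRNA 2. The groups did not overlap, and PRMT5 shRNA 2 lay between the others. EARS2 fell with PRMT5 shRNA 1 by 0.47 ± 0.10 (adjusted p = 0.00389), and on its other 2 kept probe sets the differences were -0.63 and -0.35.

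WARS2, the tryptophanyl enzyme, read 253 and 249 with NTC, 185 and 172 with PRMT5 shRNA 1, and 269.5 and 234 with PRMT5 shRNA 2. The PRMT5 shRNA 1 arrays stood below the rest and the PRMT5 shRNA 2 arrays lay on both sides of NTC. WARS2 fell with PRMT5 shRNA 1 by 0.46 ± 0.09 (adjusted p = 0.00247), with a difference of 0.00 ± 0.09 for PRMT5 shRNA 2. Its other kept probe set did not show this, at 0.03 with PRMT5 shRNA 1 and -0.26 with PRMT5 shRNA 2, so the WARS2 result rests on 1 of 2 probe sets.

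The seryl enzyme SARS2 read 83.0 and 91.7 with NTC, 64.1 and 47.4 with PRMT5 shRNA 1, and 73.7 and 71.6 with PRMT5 shRNA 2. It was among the dimmest members, and its PRMT5 shRNA 1 arrays lay lowest with no overlap. SARS2 fell with PRMT5 shRNA 1 by 0.54 ± 0.12 (adjusted p = 0.00573), a call lost without PRMT5 shRNA 1 replicate 2 (-0.37, adjusted p = 0.0607).

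VARS2, the valyl enzyme, read 134 and 133 with NTC, 105 and 90.4 with PRMT5 shRNA 1, and 127 and 129 with PRMT5 shRNA 2. The PRMT5 shRNA 2 arrays stood close under NTC and the PRMT5 shRNA 1 arrays well below. VARS2 fell with PRMT5 shRNA 1 by 0.39 ± 0.10 (adjusted p = 0.0081), a call lost without PRMT5 shRNA 1 replicate 2 (-0.30, adjusted p = 0.0816).

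YARS2, the tyrosyl enzyme, read 294 and 293 with NTC, 218 and 238 with PRMT5 shRNA 1, and 269.7 and 240.4 with PRMT5 shRNA 2. All 4 knockdown arrays lay below NTC. YARS2 fell with PRMT5 shRNA 1 by 0.34 ± 0.09 (adjusted p = 0.00905), a call lost without NTC replicate 1 (-0.34, adjusted p = 0.0504) and without PRMT5 shRNA 1 replicate 1 (-0.28, adjusted p = 0.0727).

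LARS2, the leucyl enzyme, read 418 and 407 with NTC, 332 and 346 with PRMT5 shRNA 1, and 398 and 452 with PRMT5 shRNA 2, so PRMT5 shRNA 1 stood apart and PRMT5 shRNA 2 lay on both sides of NTC. LARS2 fell with PRMT5 shRNA 1 by 0.27 ± 0.08 (adjusted p = 0.0189). IARS2, the isoleucyl enzyme, read 986 and 1011 with NTC, 902 and 799 with PRMT5 shRNA 1, and 914 and 964 with PRMT5 shRNA 2. IARS2 fell with PRMT5 shRNA 1 by 0.23 ± 0.07 (adjusted p = 0.0225), with all 4 knockdown arrays below NTC. Without NTC replicate 1, NTC replicate 2 or PRMT5 shRNA 1 replicate 2 neither LARS2 nor IARS2 passed, at -0.25 to -0.30 for LARS2 and -0.14 to -0.25 for IARS2, and LARS2 was also lost without PRMT5 shRNA 1 replicate 1 (-0.24). CARS2, FARS2, PARS2 and RARS2 were called with neither hairpin, with differences of -0.27 to -0.07 for PRMT5 shRNA 1 and -0.04 to 0.10 for PRMT5 shRNA 2.

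The share of cytosolic enzymes called in either direction was close to that of all genes. It was 35.3% beside 39.3% with PRMT5 shRNA 1, and 23.5% beside 21.4% with PRMT5 shRNA 2. With PRMT5 shRNA 1, 6 of 17 fell (FARSB, HARS1, IARS1, RARS1, VARS1 and YARS1) and 0 rose, where 23.1% of all genes were lower. With PRMT5 shRNA 2, 3 rose (AARS1, CARS1 and WARS1) and 1 fell (VARS1), where 13.1% of all genes were higher and 8.38% lower. The class medians were -0.07 and -0.05, close to the -0.04 and 0.01 of all genes. With PRMT5 shRNA 1 fewer were called without PRMT5 shRNA 1 replicate 2 (class median -0.10) and without NTC replicate 2 (-0.08). With PRMT5 shRNA 2 fewer were called without NTC replicate 1 (-0.06) and without PRMT5 shRNA 2 replicate 1 (-0.05). In each of these fits fewer of all genes were called too.

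**Figure D2:**
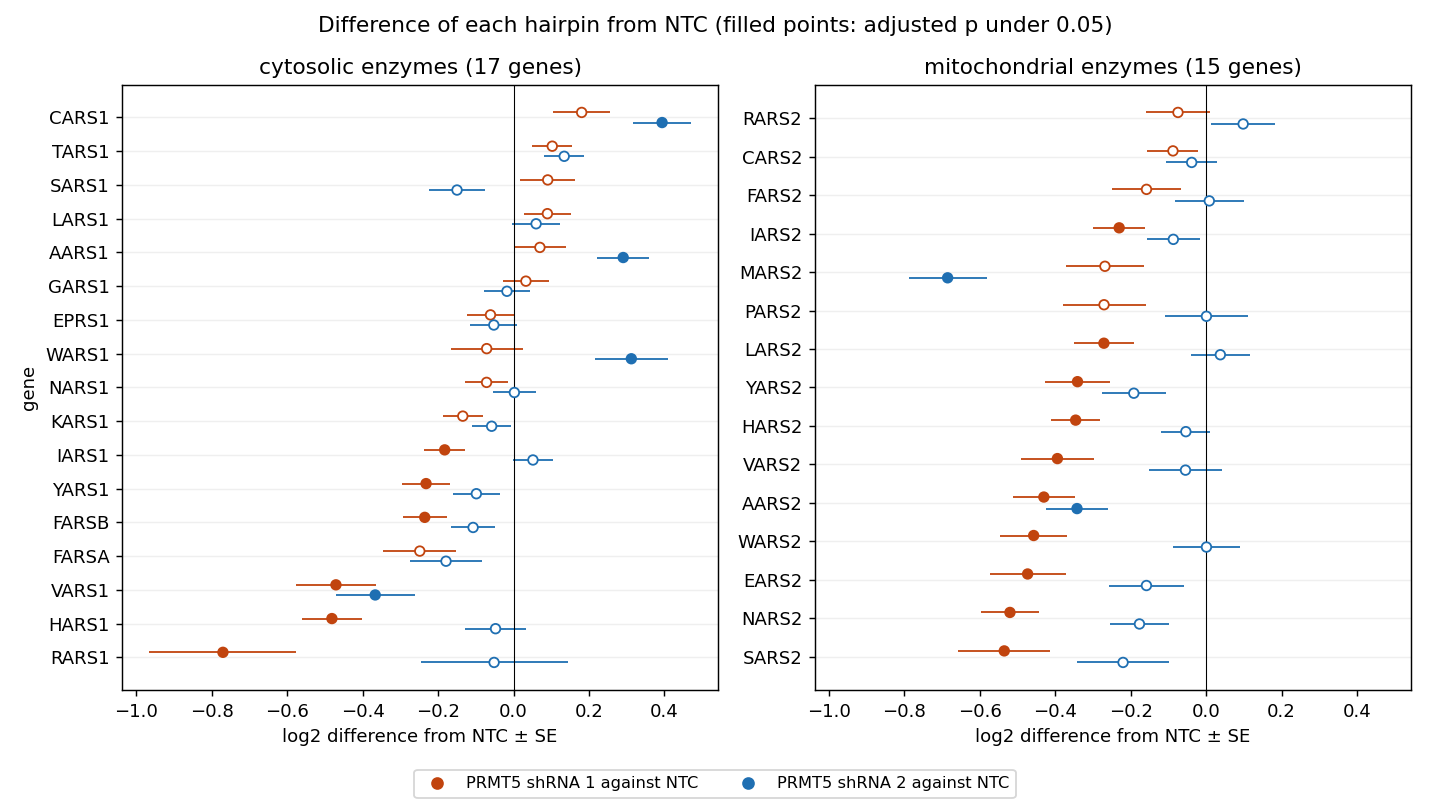
Log2 difference from NTC with its SE (x axis) for 17 cytosolic enzymes (left) and 15 mitochondrial enzymes (right), with PRMT5 shRNA 1 in orange and PRMT5 shRNA 2 in blue and filled points at an adjusted p under 0.05. The 10 filled mitochondrial points of PRMT5 shRNA 1 all lie below 0, while the cytosolic points lie on both sides, with CARS1, AARS1 and WARS1 filled above 0 for PRMT5 shRNA 2.

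CARS1, the cysteinyl enzyme, read 279 and 283 with NTC, 317 and 324 with PRMT5 shRNA 1, and 356 and 393 with PRMT5 shRNA 2. The groups rose in that order with no overlap. CARS1 rose with PRMT5 shRNA 2 by 0.39 ± 0.08 (adjusted p = 0.00381), and the difference with PRMT5 shRNA 1 was 0.18 ± 0.08 (adjusted p = 0.0833). Its other 2 kept probe sets gave 0.52 and 0.46 with PRMT5 shRNA 2, and 0.21 and 0.45 with PRMT5 shRNA 1.

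AARS1, the alanyl enzyme, read 459.9 and 473 with NTC, 472 and 509 with PRMT5 shRNA 1, and 589 and 559.5 with PRMT5 shRNA 2. The PRMT5 shRNA 2 arrays stood above the rest, and the PRMT5 shRNA 1 arrays overlapped NTC. AARS1 rose with PRMT5 shRNA 2 by 0.29 ± 0.07 (adjusted p = 0.0122), a call lost without NTC replicate 1 (0.27, adjusted p = 0.0864) and without PRMT5 shRNA 2 replicate 1 (0.25, adjusted p = 0.0611).

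WARS1, the tryptophanyl enzyme, which interferon also induces, read 216 and 253 with NTC, 232 and 212 with PRMT5 shRNA 1, and 309 and 280.2 with PRMT5 shRNA 2. Again the PRMT5 shRNA 2 arrays were the highest and those of PRMT5 shRNA 1 overlapped NTC. WARS1 rose with PRMT5 shRNA 2 by 0.31 ± 0.10 (adjusted p = 0.0397). Its other kept probe set gave 0.14, and over the mean of both the call was lost. The call was lost in 4 of the 6 fits that left out 1 array, at 0.20 without NTC replicate 1 (adjusted p = 0.286), 0.25 without PRMT5 shRNA 2 replicate 1 (adjusted p = 0.174), and 0.31 without PRMT5 shRNA 1 replicate 1 or 2 (adjusted p = 0.0505 and 0.0502).

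The promoters of AARS1 and CARS1, the cytosolic members that rose for both hairpins averaged, are given in the same way, at chr16:70289507-70289756 and chr11:3057424-3057673, both on the minus strand. CARS1 has 2 windows, and the one whose start lies farthest upstream is shown. Counts of genes with a motif take a match in any window of a gene. Capitals mark TGATGNAA, the core of the CEBP-ATF response element that ATF4 dimers bind, and CCGGAAG, on either strand.
AARS1: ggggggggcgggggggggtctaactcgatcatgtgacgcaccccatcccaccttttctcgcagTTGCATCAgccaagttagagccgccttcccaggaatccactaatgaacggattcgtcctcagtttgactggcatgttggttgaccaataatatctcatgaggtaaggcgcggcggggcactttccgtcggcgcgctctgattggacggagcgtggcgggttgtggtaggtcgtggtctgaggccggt
CARS1: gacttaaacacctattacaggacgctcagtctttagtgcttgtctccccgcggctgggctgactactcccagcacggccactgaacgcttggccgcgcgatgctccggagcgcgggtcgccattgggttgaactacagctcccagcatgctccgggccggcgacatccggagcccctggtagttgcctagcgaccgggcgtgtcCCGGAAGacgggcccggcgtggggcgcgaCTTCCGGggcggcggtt
The AARS1 window held TGATGNAA once, on the opposite strand from 187 to 180 bases before the start, and the CARS1 window held 2 matches to CCGGAAG, from 46 to 40 and from 17 to 11. TGATGNAA was in 2.36% of tested genes with a window, in 3.14% of all RefSeq windows and in 3 of 14 cytosolic enzymes (AARS1, GARS1 and IARS1). It was also in 1 of 13 mitochondrial enzymes, YARS2, which fell with PRMT5 shRNA 1. Of the 3 cytosolic enzymes, AARS1 was the one that rose. GARS1 differed by 0.03 and -0.02 with PRMT5 shRNA 1 and 2, and IARS1 by -0.18 (adjusted p = 0.0205) and 0.05. CCGGAAG was in 9 of the 14.

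VARS1, the cytosolic valyl enzyme, was the cytosolic member that fell with each hairpin. VARS1 read 119 and 126 with NTC, 92.6 and 76.1 with PRMT5 shRNA 1, and 92.8 and 90.2 with PRMT5 shRNA 2. All 4 knockdown arrays lay below NTC and overlapped each other. The differences were -0.47 ± 0.10 with PRMT5 shRNA 1 (adjusted p = 0.00507) and -0.37 ± 0.10 with PRMT5 shRNA 2 (adjusted p = 0.0293), and its other probe set gave -0.16 and -0.35. The call with PRMT5 shRNA 1 was lost without PRMT5 shRNA 1 replicate 2 (-0.35, adjusted p = 0.0563), and that with PRMT5 shRNA 2 was lost without either NTC array or either of its own arrays (-0.40 to -0.33, adjusted p = 0.073 to 0.155).

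RARS1, the arginyl enzyme of the multi-synthetase complex, read 643 and 659 with NTC, 434 and 324 with PRMT5 shRNA 1, and 479 and 821 with PRMT5 shRNA 2. The PRMT5 shRNA 1 arrays lay below all others, while the PRMT5 shRNA 2 arrays fell on opposite sides of NTC. RARS1 fell with PRMT5 shRNA 1 by 0.77 ± 0.19 (adjusted p = 0.0097), a call lost without PRMT5 shRNA 1 replicate 2 (-0.57, adjusted p = 0.0859).

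FARSB, the beta subunit of the phenylalanyl enzyme, read 1092 and 1107 with NTC, 922 and 941 with PRMT5 shRNA 1, and 992 and 1047 with PRMT5 shRNA 2, in non-overlapping groups. FARSB fell with PRMT5 shRNA 1 by 0.24 ± 0.06 (adjusted p = 0.0086), although a much dimmer probe set gave 0.07. The alpha subunit FARSA was not called, at -0.25 ± 0.10 (adjusted p = 0.0615). The FARSB call was lost without NTC replicate 2 (-0.23, adjusted p = 0.0618) and without PRMT5 shRNA 1 replicate 1 (-0.22, adjusted p = 0.0544).

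YARS1, the tyrosyl enzyme, read 878 and 947 with NTC, 788 and 761 with PRMT5 shRNA 1, and 862 and 839.5 with PRMT5 shRNA 2, with PRMT5 shRNA 1 lowest. YARS1 fell with PRMT5 shRNA 1 by 0.23 ± 0.06 (adjusted p = 0.014), and the call was lost without NTC replicate 2 (-0.18, adjusted p = 0.131) and without PRMT5 shRNA 1 replicate 2 (-0.21, adjusted p = 0.0911). IARS1, the isoleucyl enzyme, read 1449.5 and 1429 with NTC, 1271 and 1261 with PRMT5 shRNA 1, and 1461 and 1524 with PRMT5 shRNA 2. Its fall with PRMT5 shRNA 1 was lost without either NTC array or either PRMT5 shRNA 1 array (-0.19 to -0.17, adjusted p = 0.0733 to 0.124). EPRS1, GARS1, KARS1, LARS1, NARS1 and TARS1 were called in none of these comparisons, with differences between -0.13 and 0.13.

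The cytosolic and mitochondrial histidyl enzymes HARS1 and HARS2 lie head to head on chromosome 5, transcribed in opposite directions. HARS1 read 392 and 413 with NTC, 303 and 266 with PRMT5 shRNA 1, and 385 and 392 with PRMT5 shRNA 2. HARS2 read 513 and 525 with NTC, 408 and 402 with PRMT5 shRNA 1, and 496 and 503 with PRMT5 shRNA 2. For both genes the PRMT5 shRNA 1 arrays stood well below the other 4 arrays. HARS1 fell with PRMT5 shRNA 1 by 0.48 ± 0.08 (adjusted p = 0.000929) and HARS2 by 0.35 ± 0.07 (adjusted p = 0.00196). With PRMT5 shRNA 2 neither was called, at -0.05 ± 0.08 and -0.05 ± 0.07. The 84 bases between the RefSeq starts, chr5:140691371-140691454 on GRCh38.p14, are shown on the plus strand because both genes share them, with CCGGAAG on either strand in capitals.
HARS1-HARS2 interval: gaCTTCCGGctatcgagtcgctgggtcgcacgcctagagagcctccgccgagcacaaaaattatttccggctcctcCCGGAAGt
The interval held CCGGAAG at each end, in opposite orientations. Each gene is read by 1 probe set, which is assigned to that gene alone.

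The averaged comparison of both PRMT5 shRNAs against NTC called 2 cytosolic enzymes higher (AARS1 and CARS1) and 4 lower (FARSB, HARS1, VARS1 and YARS1) of 17. It called 8 of 15 mitochondrial enzymes lower (AARS2, EARS2, HARS2, MARS2, NARS2, SARS2, WARS2 and YARS2) and 0 higher. Of all genes, 15.4% were higher and 17.0% lower (32.4% in all). The lowest mitochondrial differences were -0.48 ± 0.09 for MARS2 (adjusted p = 0.00217), -0.39 ± 0.07 for AARS2 (adjusted p = 0.00187) and -0.35 ± 0.07 for NARS2 (adjusted p = 0.00266). Of the 14 calls, AARS2 was the one kept in every alternative fit. MARS2 and NARS2 were lost with both hairpins taken as 1 group of 4 arrays, an alternative chosen after seeing the data, in which AARS2 and VARS1 were the 2 enzymes called. Fewer of both classes were called without either NTC array or without PRMT5 shRNA 1 replicate 2, as over all genes. The mitochondrial median was -0.22 without NTC replicate 1, -0.23 without NTC replicate 2 and -0.19 without PRMT5 shRNA 1 replicate 2. In the same order it was -0.06, -0.07 and -0.06 for cytosolic enzymes and -0.02, -0.01 and -0.01 over all genes.

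**Figure D3:**
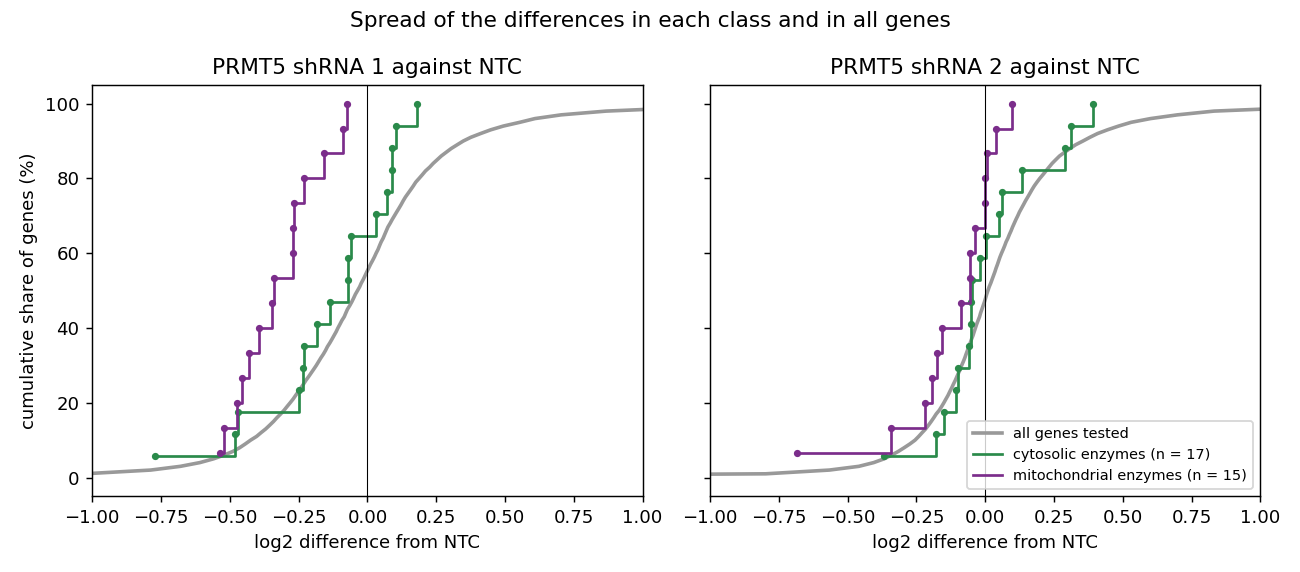
Cumulative share of genes (y axis, percent) by log2 difference from NTC (x axis) for PRMT5 shRNA 1 (left) and PRMT5 shRNA 2 (right), for all 12405 genes tested (grey), cytosolic enzymes (green) and mitochondrial enzymes (purple). With PRMT5 shRNA 1 the mitochondrial curve reaches 100% below 0, with a median of -0.34, and with PRMT5 shRNA 2 the 3 curves lie closer, with a median of -0.05 for each enzyme class and 0.01 for all genes.

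The hairpins were compared directly as PRMT5 shRNA 2 minus PRMT5 shRNA 1, without the NTC arrays in the contrast. Of 17 cytosolic enzymes 5 were higher with PRMT5 shRNA 2 and 1 lower, and of 15 mitochondrial enzymes 6 were higher and 1 lower, where 18.3% of all genes were higher and 7.37% lower (25.7% in all). The median differences were 0.10 and 0.27, beside 0.06 over all genes. Among the largest were WARS2 at 0.46 ± 0.09 (adjusted p = 0.00521) and HARS1 at 0.43 ± 0.08 (adjusted p = 0.00413), which were the calls that no single array removed. RARS1 differed by 0.72 ± 0.19 (adjusted p = 0.0219), which was 0.34 without PRMT5 shRNA 2 replicate 2 (adjusted p = 0.123) and 0.52 without PRMT5 shRNA 1 replicate 2 (adjusted p = 0.155). SARS1, the cytosolic seryl enzyme, read 712 and 672 with NTC, 755 and 719.5 with PRMT5 shRNA 1, and 585 and 661 with PRMT5 shRNA 2, so the hairpins lay on opposite sides of NTC. Its difference was -0.24 ± 0.07 (adjusted p = 0.0352). The other kept SARS1 probe set ran the other way, at -0.05 with PRMT5 shRNA 1 and 0.04 with PRMT5 shRNA 2, and over the mean of both the call was lost (-0.08). AIMP1 read 1148 and 1061 with NTC, 1177 and 1229 with PRMT5 shRNA 1, and 997 and 1028 with PRMT5 shRNA 2, in the same pattern, with a difference of -0.25 ± 0.06 (adjusted p = 0.0161). Of its other 2 kept probe sets, 1 gave -0.17 and -0.16 from NTC with PRMT5 shRNA 1 and 2 and the other 0.04 and -0.08, and over the mean of all 3 the call was lost (-0.12). Fewer of both classes were called without either PRMT5 shRNA 1 array or without PRMT5 shRNA 2 replicate 2, as over all genes. The cytosolic and mitochondrial medians were 0.11 and 0.18 without PRMT5 shRNA 1 replicate 2, and 0.16 and 0.27 without PRMT5 shRNA 1 replicate 1. They were 0.12 and 0.22 without PRMT5 shRNA 2 replicate 2.

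Enzymes for the same amino acid were set side by side in 15 pairings, in which EPRS1 and FARS2 each appear 2 times because EPRS1 charges both glutamate and proline and the cytosolic phenylalanyl enzyme has 2 subunits. The difference of the mitochondrial enzyme was below that of the cytosolic one in 10 of 15 pairings with each hairpin. The median of mitochondrial minus cytosolic was -0.21 with PRMT5 shRNA 1 and -0.07 with PRMT5 shRNA 2. Alanine had the widest gap with PRMT5 shRNA 2, at 0.29 for AARS1 and -0.34 for AARS2, and with PRMT5 shRNA 1 the values were 0.07 and -0.43. Arginine ran the other way with PRMT5 shRNA 1, at -0.77 for RARS1 and -0.07 for RARS2. These pairings compare differences, not levels, and carry no test.

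**Figure D4:**
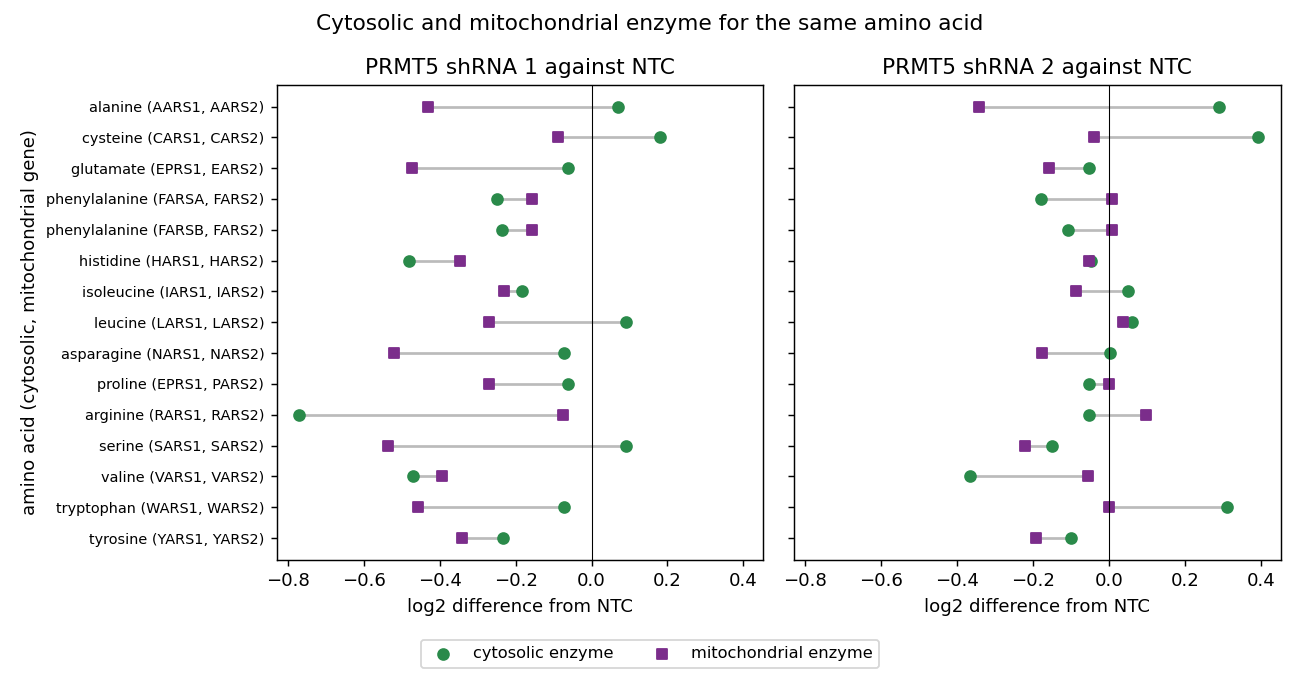
Log2 difference from NTC (x axis) of the cytosolic (green circle) and mitochondrial (purple square) enzyme for the same amino acid, with a line joining each pairing, for PRMT5 shRNA 1 (left) and PRMT5 shRNA 2 (right). The square lies left of the circle in 10 of 15 pairings in each panel, and the alanine pairing is wide in both.

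Members were also grouped by complex, regulator and fold, and their counts stand beside all genes at 23.1% lower and 16.2% higher with PRMT5 shRNA 1, and 8.38% lower and 13.1% higher with PRMT5 shRNA 2. Of the 6 tested members of the multi-synthetase complex, 2 fell with PRMT5 shRNA 1 (IARS1 and RARS1), 0 were called with PRMT5 shRNA 2 and 0 on average in limma's fit. At an unadjusted p under 0.05 these counts were 3, 0 and 1. Of 12 tested members reported as ATF4 targets, 0 rose and 3 fell with PRMT5 shRNA 1 (IARS1, VARS1 and YARS1), and 3 rose (AARS1, CARS1 and WARS1) and 1 fell (VARS1) with PRMT5 shRNA 2. The 25% lower with PRMT5 shRNA 1 is close to the share in all genes. Of the other 5 cytosolic enzymes, 3 fell with PRMT5 shRNA 1 (FARSB, HARS1 and RARS1) and 0 were called with PRMT5 shRNA 2, where 0 also had an unadjusted p under 0.05. Synthetases fall into class I and class II by the fold of their catalytic domain, and 10 of 16 class I and 6 of 15 class II members fell with PRMT5 shRNA 1. With PRMT5 shRNA 2, 2 class I members fell and 2 rose, and 1 class II member fell and 1 rose.

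Of 14 regulators around ATF4, 5 were called higher on average and 0 lower, where 15.4% of all genes were higher and 17.0% lower. They were CEBPB (0.72 ± 0.07), DDIT3 (0.50 ± 0.07), SESN2 (0.41 ± 0.09), CEBPG and CHAC1, and the call of CHAC1 was favoured by the dim filter. With PRMT5 shRNA 1 alone 5 rose and 1 fell (EIF2AK4, a kinase that senses uncharged tRNA, -0.24 ± 0.08), and with PRMT5 shRNA 2 alone 5 rose and 0 fell. Of all genes, 16.2% were higher and 23.1% lower with PRMT5 shRNA 1, and 13.1% and 8.38% with PRMT5 shRNA 2. CEBPG rose with PRMT5 shRNA 1 (0.65 ± 0.07) but differed by -0.19 ± 0.07 with PRMT5 shRNA 2 (adjusted p = 0.0863), with both of those arrays below NTC. Its hairpins differed by -0.84 ± 0.07 (PRMT5 shRNA 2 minus 1, adjusted p = 0.000148), so its average of 0.23 describes neither. CHAC1 read 15.9 and 12.3 with NTC, near the medians of those arrays (15.8 and 15.6). It passed the dim filter through the knockdown arrays, which read 55.7 and 46.5 and then 26.7 and 28.6. No size is therefore given for CHAC1, and its place in the counts of this list is no support for a rise. Fewer were called on average without either NTC array or without PRMT5 shRNA 1 replicate 2, as over all genes. CHAC1 degrades glutathione, CEBPB, CEBPG and DDIT3 are transcription factors of the C/EBP family, and SESN2 restrains mTORC1. ATF4 itself, which is controlled largely in translation, differed by 0.05 ± 0.06 (adjusted p = 0.587). Of 11 tested genes of amino acid synthesis in the ATF4 program, 3 rose and 3 fell with PRMT5 shRNA 1 (16.2% of all genes higher and 23.1% lower), and 0 were called with PRMT5 shRNA 2 in limma's fit (0 also at an unadjusted p under 0.05). PHGDH and PSAT1 of serine synthesis differed by 0.40 ± 0.13 and 0.33 ± 0.07 with PRMT5 shRNA 1, and by 0.24 ± 0.13 and 0.02 ± 0.07 with PRMT5 shRNA 2. CBS and CTH, which make cysteine from homocysteine, differed by -0.77 ± 0.09 and -0.32 ± 0.11 with PRMT5 shRNA 1, and by -0.11 ± 0.09 and -0.21 ± 0.11 with PRMT5 shRNA 2. On average 2 rose (PHGDH and PSAT1) and 2 fell (CBS and CTH). That is 18.2% each way, close to the 15.4% higher and 17.0% lower of all genes. Each fit without 1 array called fewer of the list higher. ASNS, the asparagine synthetase, differed on average by 0.13 ± 0.06 (adjusted p = 0.124).

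Of 19 tested translation factors and tRNA-modifying enzymes of mitochondria, 8 fell and 1 rose (MTIF3, an initiation factor) with PRMT5 shRNA 1, where 23.1% of all genes were lower. With PRMT5 shRNA 2, 1 fell (GTPBP3), a share of 5.26%, below the 8.38% of all genes. Still, 15 of the 19 differences with PRMT5 shRNA 2 were below 0, where 47.6% of all genes were. Their median was -0.14 beside 0.01 over all genes. With PRMT5 shRNA 1, 13 of the 19 were below 0, with a median of -0.23 beside -0.04. On average 9 fell, 0 rose and 10 were not called, where 17.0% of all genes were lower. Fewer of the list were called lower in each fit without 1 array. Fewer of all genes were too, except without PRMT5 shRNA 2 replicate 2. GFM1, an elongation factor, differed by -0.40 ± 0.06 with PRMT5 shRNA 1 and -0.14 ± 0.06 with PRMT5 shRNA 2. For ELAC2, which cuts tRNA 3' ends, the values were -0.46 ± 0.09 and -0.13 ± 0.09. TUFM, which brings charged tRNA to the ribosome, gave -0.36 ± 0.07 and -0.04 ± 0.07. Of these 3, each was called with PRMT5 shRNA 1 and none with PRMT5 shRNA 2. The rest of the 9 genes called on average did not all share this order of hairpins. PUS1, called with neither hairpin alone, gave -0.27 ± 0.12 and -0.35 ± 0.12, and GTPBP3 gave -0.17 ± 0.08 and -0.29 ± 0.08. For MTO1 the values were -0.25 and -0.20, for MTRF1 -0.27 and -0.19, for TRNT1 -0.24 and -0.16, and for TRIT1 -0.25 and -0.04.

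Of 19 tested genes of nuclear and cytosolic tRNA processing, 9 fell with PRMT5 shRNA 1 (23.1% of all genes lower), 2 with PRMT5 shRNA 2 (8.38% lower) and 5 on average (17.0% lower), and 0 rose in any of these. Fewer were called on average without either NTC array, as over all genes. The genes called on average were POP1, TSEN54, YRDC, ADAT2 and TRMT6. POP1, a protein of RNase P, fell with each hairpin, by 0.70 ± 0.08 with PRMT5 shRNA 1 and 0.43 ± 0.08 with PRMT5 shRNA 2, and so did TRMT6, a methyltransferase subunit, by 0.40 ± 0.08 and 0.27 ± 0.08. YRDC, which acts in making a modified adenosine of tRNA, gave -0.88 ± 0.08 and -0.07 ± 0.08. TSEN54 of the splicing endonuclease gave -0.71 ± 0.13 and -0.27 ± 0.13, and ADAT2, a tRNA deaminase, -0.53 ± 0.11 and -0.30 ± 0.11, in each case called with PRMT5 shRNA 1 alone. TARS3, another cytosolic threonyl enzyme, rose on average by 0.26 ± 0.06 (adjusted p = 0.00538), a call lost without NTC replicate 2, and the 3 tested elongation factor genes (EEF1A1, EEF1A2 and EEF1D) were not called on average, though EEF1A2 fell with PRMT5 shRNA 1 (-0.29 ± 0.08, adjusted p = 0.0132). TARS1 itself differed by 0.12 ± 0.05 (adjusted p = 0.0689).

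Several members are read by more than 1 probe set, and these did not always give the same value. With PRMT5 shRNA 1 the other kept probe set of FARS2 gave -0.34 where the one used gave -0.16, and those of CARS2 ran from -0.32 to 0.42 around -0.09. LARS1, at 0.09, had others from -0.15 to 0.78. For LARS2, whose probe set gave -0.27, the other gave -0.29, and for YARS1 it gave -0.14 beside -0.23. AARS1, HARS1, IARS1, RARS1, HARS2, IARS2, MARS2, NARS2, SARS2, VARS2 and YARS2, all called above, have 1 probe set each, so no other probe set bears on them.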

How the data were processed

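The deposited intensities (linear, 54675 probe sets, 6 arrays) were made by the authors with MAS5, a name taken from the submitters' processing notes. Its version is not given in the sources used here. The mean of every column after trimming 2% at each end was about 150, so no further scaling was applied. Array medians were 14.8 to 16.5. Precision is limited by the number of arrays, with a median SD between replicates of 0.08 on the log2 scale. Groups came from the sample titles.

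Probe sets were named through the platform annotation (41091 with 1 symbol, 1801 with several), and 41037 matched the RefSeq gene table by Entrez ID. A probe set was kept if it reached its array's median in at least 2 arrays. The brightest kept probe set per gene was used. A pseudocount of 16 was added, and log2 values of all 6 arrays entered 1 model in limma 3.58.1 (R 4.3.3; eBayes used an intensity trend), with 3 residual and 7.89 prior degrees of freedom. The 4 contrasts were the average of both PRMT5 shRNAs against NTC, each hairpin against NTC, and the hairpins against each other. All p-values are two-sided and Benjamini-Hochberg adjusted over 12405 genes. The fit was also run on simulated data with planted differences, whose outcome is not given here. Comparisons with NTC share its 2 arrays, so they are not independent of each other.

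All members are named, and array values are given for members called in any contrast. Companion genes called on average are named, at most 6 a list, except that all 9 of the mitochondrial translation list are given. ATF4, ASNS and MTIF3 were chosen after their values were seen. EIF2AK4, EEF1A1, EEF1A2 and EEF1D are also named, though not called on average. Members and lists were chosen with earlier results of these data known. Promoters came from RefSeq for GRCh38.p14, with a window for 28 of the 33 genes. Alternatives were other pseudocounts, filters, normalization, probe set rules, no trend, a replicate block and leaving out each array.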

Additional observations from a re-analysis of the deposited data

Results flagged for a closer look

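In 14 of the 33 genes the effects of the 2 PRMT5 hairpins differed from each other by limma's test of PRMT5 shRNA 2 minus PRMT5 shRNA 1, where 25.7% of all genes were called. Higher with PRMT5 shRNA 2 were RARS1 (0.72), WARS2 (0.46), HARS1 (0.43), WARS1 (0.38), NARS2 (0.34), VARS2 (0.34), EARS2 (0.31), LARS2 (0.31), HARS2 (0.29), IARS1 (0.23) and AARS1 (0.22), on the log2(intensity + 16) scale. Lower were MARS2 (-0.42), AIMP1 (-0.25) and SARS1 (-0.24). HARS1 was called in every alternative fit, and WARS2 in each fit that left out 1 array, although its other kept probe set gave differences from NTC of 0.03 and -0.26. The other 12 lost their call without at least 1 array. Levels of PRMT5 and the ACTB signal ratio also differed between the hairpin groups, and their part in these differences was not tested.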

How the results depend on the processing

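No called gene changed direction in any alternative fit. Calls kept in every fit were AARS2 on average (1 of 14), HARS1, AARS2, EARS2, HARS2, NARS2 and WARS2 with PRMT5 shRNA 1 (6 of 16), CARS1 and MARS2 with PRMT5 shRNA 2 (2 of 6), and HARS1 between hairpins (1 of 14). Of 6 cytosolic enzymes called on average, the count was 3 without probe sets whose names mark shared targets (FARSB and VARS1 then had none left to test), 3 without the intensity trend and 1 with both hairpins as 1 group, where the count of 8 mitochondrial enzymes also became 1. Cytosolic calls with PRMT5 shRNA 1 went from 6 to 2 without shared-target probe sets (FARSB, IARS1 and VARS1 had none left). Those with PRMT5 shRNA 2 went from 4 to 2 without the dim filter, and those between hairpins from 6 to 3 without the dim filter or the trend. Of all genes, 33.3% were called on average and 40.0% with PRMT5 shRNA 1 without shared-target probe sets. Without the dim filter 11.1% of 19775 genes were called with PRMT5 shRNA 2 and 11.8% between hairpins, beside 21.4% and 25.7% of 12405 with it. Without the trend 29.6% were called on average and 22.1% between hairpins. Beyond the genes not tested, the cause of these shifts was not tested. Leaving out each array in turn gave 1 to 6 cytosolic and 3 to 8 mitochondrial calls on average, 2 to 7 and 6 to 11 with PRMT5 shRNA 1, 1 to 3 and 1 to 2 with PRMT5 shRNA 2, and 1 to 5 and 2 to 6 between hairpins.

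With the replicate number as a block the cytosolic counts were 4, 6, 4 and 5 and the mitochondrial counts 8, 10, 2 and 6, in the order average, PRMT5 shRNA 1, PRMT5 shRNA 2 and between hairpins. Deviations of same-numbered arrays from their group means correlated at -0.09, -0.18 and -0.005. With 2 arrays per group these values cannot show whether same-numbered arrays shared a culture or day, and the labels do not say.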
